A study of Mus musculus with 48 samples.

Results

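The 5 genes described here encode hormones of the pars distalis, the main part of the anterior pituitary: Prl (prolactin), Gh (growth hormone), Fshb and Lhb (the beta subunits of follicle-stimulating and luteinizing hormone) and Pomc (pro-opiomelanocortin, the precursor of adrenocorticotropin and the melanocortins). They were chosen by name, out of 18194 genes measured, and each is read from the probe set that had the greatest mean over the 48 arrays, out of those annotated with that gene alone. The arrays measured messenger RNA of the pars tuberalis, the layer of pituitary tissue around the stalk, cut with a needle of 0.5 mm from slices 0.5 mm thick of male CBA/N mice. Each array was 1 pool of 25 mice, and the whole procedure was repeated to give 2 replicate arrays at each of 6 time points in each of 4 conditions, so 12 arrays per condition and 24 groups in all. All mice, controls included, were first kept for 3 weeks under short days. Mice under long days then had 16 h of light per day for 2 weeks and were 8 weeks old. Mice called advance and delay were 6 weeks old and were taken on a single long day that followed: in advance the lights came on at ZT16 and stayed on until ZT8, and in delay they were on between ZT0 and ZT16. Mice under short days stayed at 8 h of light per day and were 8 weeks old. ZT is zeitgeber time in hours, and in advance and delay it counts from lights-on of the preceding short-day cycle. Age and lighting cannot be told apart when the day means of advance or delay are compared with those of short days. By this schedule the delay arrays at ZT0, ZT4 and ZT8 came before any light beyond that of short days. The advance arrays at ZT16 were taken as such light began. The labels of the delay arrays give no day, and their ZT was taken as labelled.

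In the pars distalis, lactotrophs make prolactin and somatotrophs make growth hormone, and both cell types depend on the transcription factor Pit-1. Gonadotrophs make luteinizing and follicle-stimulating hormone, each a dimer of its own beta subunit with the common alpha subunit encoded by Cga, under the drive of gonadotropin-releasing hormone acting through its receptor, Gnrhr. Pomc is expressed by corticotrophs, by melanotrophs of the intermediate lobe and by neurons of the arcuate nucleus of the hypothalamus, which lies above the stalk. The pars tuberalis is best known for thyrotropin, the dimer of the products of Tshb and Cga, and for its melatonin receptors. Through those receptors it reads night length, and its output is known to act on the hypothalamus and on prolactin secretion by the pars distalis. Gonadotrophs are known to occur within the pars tuberalis of several mammals as well.

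Levels below are the deposited log2 values, so a difference of 1 is a 2-fold difference, and levels of different genes were not compared. The median level of an array lay between 6.98 and 7.03 and its first quartile between 5.37 and 5.48. Tshb, the gene of the thyrotropin beta subunit, was between 9.72 and 14.43 on the 48 arrays, and Cga was between 13.21 and 14.43. Of 20 pars distalis marker genes other than the 5 hormone genes, 17 were measured, and the log2 of their summed signal was 12.48 to 12.72 under long days, 12.42 to 12.70 in advance, 12.52 to 12.78 in delay and 12.86 to 13.21 under short days. Such a sum is set mostly by the brightest genes. Gene by gene, the median change against short days was −0.09 under long days, 0.04 in advance and 0.03 in delay. Among the marker genes Ghrhr, the growth hormone-releasing hormone receptor of somatotrophs, stayed between 5.99 and 6.40 on all 48 arrays, below the median of every array. Actin control probes at the 3′ end exceeded those at the 5′ end, a measure of RNA integrity and labelling, by 1.65 ± 0.12 log2 units under long days, 1.69 ± 0.09 in advance, 1.85 ± 0.13 in delay and 1.89 ± 0.12 under short days (SD, n = 12 each).

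Prl, a gene under direct control of Pit-1, had a promoter with 2 matches to the Pit-1 motif used here (TATNCAT, either strand), 148 and 47 bases ahead of the start. A match occurred in 8.16% of 27025 mouse promoters of the same length, and a TATA box (TATAAA) in 13.0%. The 250 bases ahead of the start (RefSeq, GRCm38.p6, chr13:27057320-27057569, plus strand) are given because Prl had the largest spread between replicates among the probe sets used here. Capitals mark the 2 Pit-1 matches and the overlapping TATA matches. No entry for Gh was matched in the promoter table.

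Prl promoter: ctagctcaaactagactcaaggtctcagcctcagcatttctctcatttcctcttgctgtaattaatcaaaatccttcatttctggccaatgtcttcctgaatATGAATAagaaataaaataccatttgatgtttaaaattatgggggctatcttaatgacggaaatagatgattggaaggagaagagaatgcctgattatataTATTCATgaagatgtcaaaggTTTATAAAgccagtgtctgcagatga

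Prl rose under long days and in delay, by more than any of the other 4 hormone genes changed there, while in advance it did not pass. Its lowest, median and highest levels were 5.88, 7.47 and 12.24 under long days, 5.36, 6.39 and 11.14 in advance, 7.25, 8.33 and 10.25 in delay, and 5.41, 5.87 and 11.06 under short days. The ranges of every pair of conditions overlapped. A level above 8 was found on 6 of 12 long-day arrays, 2 of 12 advance arrays, 10 of 12 delay arrays and 1 of 12 short-day arrays. That single short-day array was replicate 1 at ZT12, and its partner replicate stood at 5.66. All 12 delay arrays and all 12 long-day arrays exceeded the short-day median.

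The day mean of Prl was 8.12 ± 2.05 under long days and 6.38 ± 1.56 under short days (SD, n = 12 each). The difference was 1.74 ± 0.59 (SE), a 3.35-fold rise with an adjusted p of 0.0140 in limma, against 46.7% of all genes that passed the same test in either direction and 17.6% that passed as higher. Prl was higher under long days at 6 of 6 time points, by 0.75 to 2.64. An exact permutation test that exchanged conditions within each time point gave a two-sided p of 0.0168. The limma call was lost without replicate 2 of short days at ZT12 (1.29, adjusted p = 0.0543) and without replicate 1 of long days at ZT8 (1.36, adjusted p = 0.0510), and the exact p was 0.0798 at its highest when 1 array was left out.

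In delay the day mean of Prl was 8.47 ± 0.81, against 6.38 ± 1.56 under short days (SD, n = 12 each). The rise was 2.09 ± 0.59 (4.27-fold, adjusted p = 0.00345), where 49.8% of genes passed in either direction and 23.8% passed as higher, and it was present at 5 of 6 time points. ZT12, where the high short-day array lies, was the exception. By the schedule, delay at ZT0, ZT4 and ZT8 came before any light beyond that of short days. Prl on those arrays was already 7.34 and 10.25, 9.01 and 8.27, and 8.17 and 8.92. Under short days it was 5.94 and 5.70, 5.81 and 5.67, and 5.41 and 5.92 at these times. Whether the extra light had a part in the difference was not tested. In advance the mean was 6.67 ± 1.64, and the difference from short days was 0.29 ± 0.59 (adjusted p = 0.712). Advance was lower than delay by 1.80 (−1.80 ± 0.59, adjusted p = 0.0227), where 24.1% of genes passed in either direction and 13.8% passed as lower. This call was lost without replicate 1 of advance at ZT12 (−1.33, adjusted p = 0.0784), without replicate 2 of delay at ZT0 (−1.56, adjusted p = 0.0518) and with the actin 3′ minus 5′ signal as a covariate (−1.45, adjusted p = 0.203). In order of mean, delay and long days came first and differed by less than the SD of either, followed by advance and short days.

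**Figure D1:**
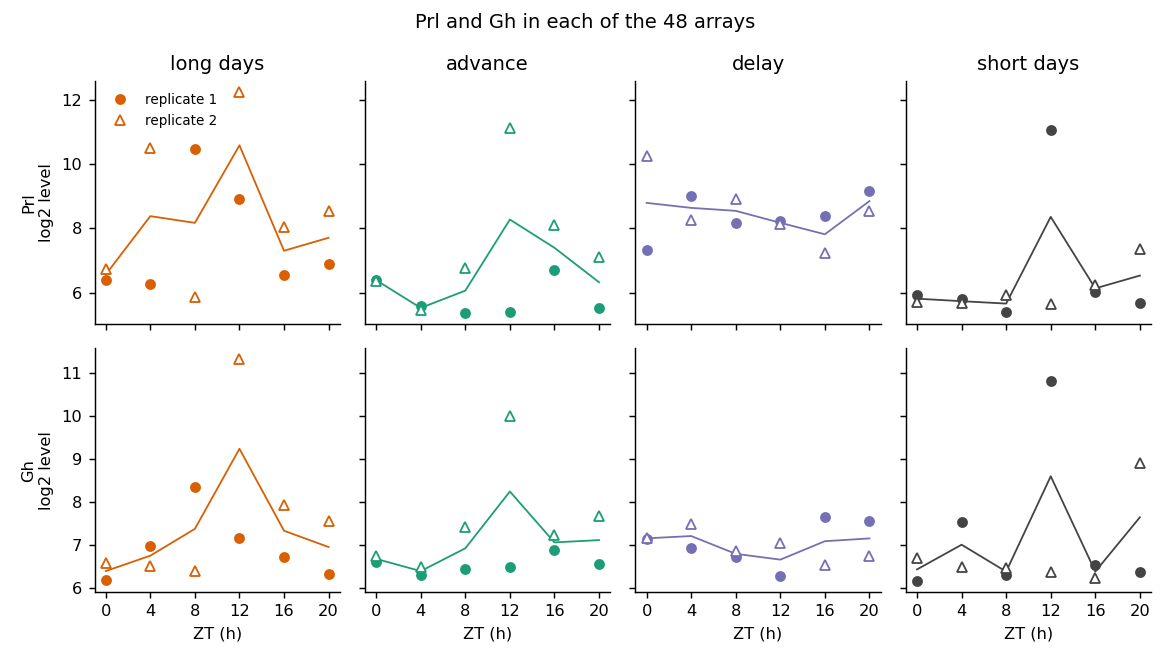
Log2 level of Prl (top) and Gh (bottom) on each of 48 arrays, by condition, against ZT in hours. Filled circles are replicate 1, open triangles replicate 2, and lines join the means of the 2. Single arrays with both genes high stand apart at ZT12 under long days, in advance and under short days, while Prl in delay is above 7 on every array without such a rise of Gh.

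Gh did not pass in any comparison of day means. Its lowest, median and highest levels were 6.19, 6.85 and 11.32 under long days, 6.29, 6.67 and 10.01 in advance, 6.27, 6.98 and 7.64 in delay, and 6.16, 6.47 and 10.82 under short days. Each highest value outside delay belonged to 1 array at ZT12, whose partner was at 7.16 under long days, 6.48 in advance and 6.37 under short days. The difference from short days was 0.27 ± 0.42 under long days (adjusted p = 0.655), −0.01 ± 0.42 in advance (adjusted p = 0.992) and −0.06 ± 0.42 in delay (adjusted p = 0.912). Advance minus delay was 0.06 ± 0.42 (adjusted p = 0.944). The means of the 4 conditions, between 7.01 in delay and 7.34 under long days, differed by less than the SD within any of them, 0.42 to 1.42. The other 3 probe sets of Gh followed it over the 48 arrays (r = 0.95 each) and spanned more, between 4.28 and 12.17 for the widest. The probe set used here had the narrowest range of the 4.

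Where lighting and time of day were the same, Prl and Gh varied more than any other gene. The SD within groups, pooled over the 24 pairs of replicates, was 1.69 for Prl and 1.21 for Gh, ranks 1 and 2 of 18194 genes. The next gene had 0.85 and the median gene 0.12. On the Gh probe set of largest range it was 1.96, so the order of the top 2 genes depended on the probe set. Fshb (0.47, rank 20), Pomc (0.43, rank 29) and Lhb (0.34, rank 83) also stood high, as did Tshb (0.45, rank 23) and Gnrhr (0.44, rank 27), whereas Cga had 0.16 and rank 3276. Fewer cells of a type in a punch and less RNA per cell cannot be told apart in these pools.

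The size of single differences shows this directly. Replicates differed by more than 1 log2 unit in 13 of 24 groups for Prl, 10 for Gh, 3 for Fshb, 2 for Pomc and 1 for Lhb. The largest difference of Prl, 5.72 at ZT12 in advance, separated levels of 5.42 and 11.14. For Gh it was 4.45 at ZT12 under short days, between 10.82 and 6.37. Differences between replicates held 46.4% of the variance of Prl, 59.8% for Gh, 47.9% for Pomc, 20.9% for Fshb and 17.8% for Lhb, with 31.0% for the median gene. Differences between the 4 conditions held 26.2% for Prl, 1.35% for Gh, 18.7% for Pomc, 54.5% for Fshb and 61.5% for Lhb, with 31.0% for the median gene.

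**Figure D2:**
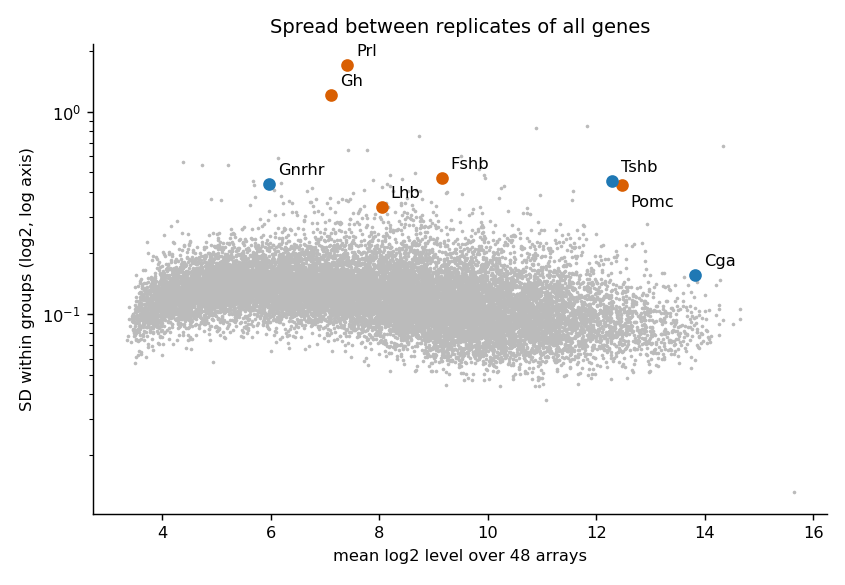
SD within groups (log2, log axis) of all 18194 genes against their mean log2 level over 48 arrays, with the 5 hormone genes in orange and Tshb, Cga and Gnrhr in blue. Prl at 1.69 and Gh at 1.21 lie above all other genes.

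Differences between replicates in Prl and in Gh went together. Over the 24 groups the replicate difference of Prl correlated with that of Gh (Pearson r = 0.789, Spearman rho = 0.627, permutation p = 4.0e-05 and 0.00130, adjusted over 10 pairs of hormone genes to 0.00020 and 0.00650). Without the 2 groups farthest from the median of Prl the r was 0.596 (adjusted p = 0.0219). Among all 18193 other genes Gh was the one most like Prl by this measure, and Prl the one most like Gh. Prl was above 8 on 19 of 48 arrays and Gh on 5, with both above it on 4. The same level need not mean the same in the 2 genes, and the Gh count depends on the probe set. On its probe set of widest range Gh was above 8 on 3 long-day, 2 advance, 2 delay and 2 short-day arrays. On the probe set used here the counts were 2, 1, 0 and 2. A level of Prl or Gh above 10 marked 6 arrays, 3 of them with both genes above it. The 6 were replicate 2 at ZT4, replicate 1 at ZT8 and replicate 2 at ZT12 of long days, replicate 2 at ZT12 of advance, replicate 2 at ZT0 of delay, and replicate 1 at ZT12 of short days.

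Some arrays had 1 of the 2 genes high without the other. Replicate 2 of long days at ZT4 had Prl at 10.50 with Gh at 6.52, and replicate 2 of delay at ZT0 had Prl at 10.25 with Gh at 7.16. Replicate 2 of short days at ZT20 had Gh at 8.91 with Prl at 7.38. Within conditions, each with 6 groups, r was 0.623 under long days, 0.975 in advance, 0.273 in delay and 0.944 under short days, with adjusted exact permutation p of 0.218, 0.0417, 0.861 and 0.0903. Ghrhr was 6.21, 6.31 and 6.34 on the 3 arrays with Gh above 10, within its narrow range elsewhere. Its probe set lay below the median of every array and detection calls were not used. Its level therefore cannot tell whether those arrays held more somatotrophs.

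With the Gh level of each array added to the model, an alternative chosen with the values known, Prl was higher by 1.44 ± 0.36 under long days (adjusted p = 0.00128) and by 2.17 ± 0.36 in delay (adjusted p = 8.11e-06) than under short days. Advance differed from delay by −1.87 ± 0.36 (adjusted p = 0.000277). Advance differed from short days by 0.30 ± 0.36 (adjusted p = 0.522). Without Gh in the model these 4 differences were 1.74, 2.09, −1.80 and 0.29, in the same order. The Gh probe set used had the narrowest range, and some arrays had Prl high without Gh. Such an adjustment therefore cannot tell how much of the Prl signal came from neighbouring tissue, which was not tested.

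**Figure D3:**
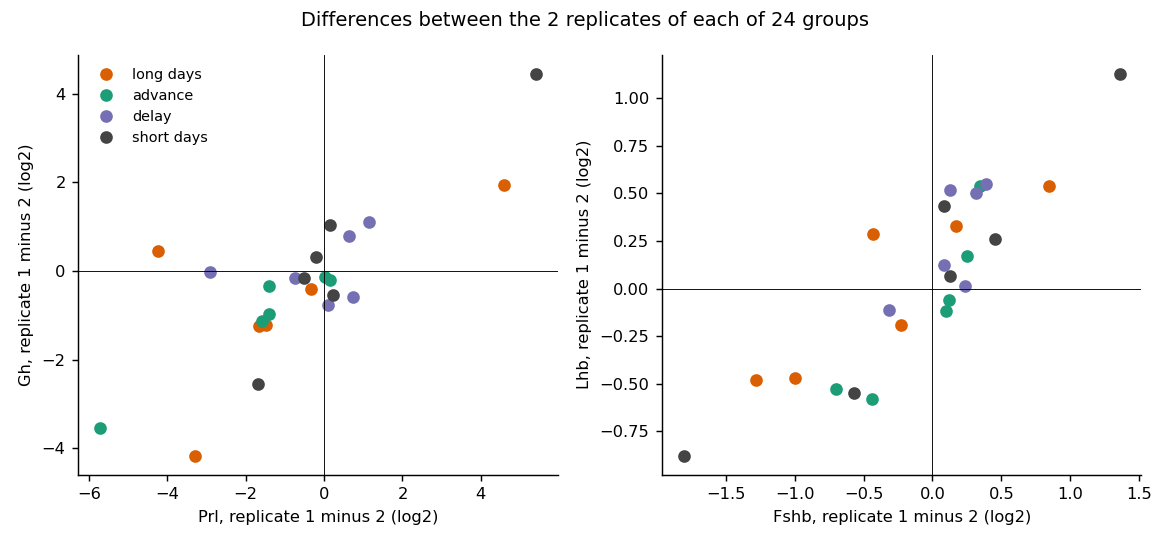
Replicate 1 minus replicate 2 (log2) in each of 24 groups, Gh against Prl (left) and Lhb against Fshb (right), coloured by condition. Points along the diagonal are groups in which both genes were higher on the same array; r is 0.789 on the left and 0.879 on the right.

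The gonadotropin subunits Fshb and Lhb moved in opposite directions under chronic long days and on the first long day of advance: both fell under long days and both rose in advance, relative to short days. Their promoters (RefSeq, GRCm38.p6, 250 bases ahead of the start) are shown because the 2 genes followed each other across arrays. Motifs searched on either strand were TGACCTTG, a site form of steroidogenic factor 1 (1.31% of promoters), GNGNGGGNG, a form of the Egr-1 site (35.2% of promoters), and the TATA box. Lhb, at chr7:45420696-45420945 on the plus strand, had 1 steroidogenic factor 1 match 129 bases and 1 Egr-1 match 50 bases ahead of the start. Fshb, at chr2:107059652-107059901 on the minus strand, had 2 overlapping Egr-1 matches, 233 and 227 bases ahead of the start. Capitals mark these matches and the TATA box of each.

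Fshb promoter: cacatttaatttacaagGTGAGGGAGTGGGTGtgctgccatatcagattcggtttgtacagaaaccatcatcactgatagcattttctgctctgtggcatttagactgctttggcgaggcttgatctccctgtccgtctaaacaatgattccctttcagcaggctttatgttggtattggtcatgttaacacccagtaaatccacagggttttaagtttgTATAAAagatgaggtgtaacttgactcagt

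Lhb promoter: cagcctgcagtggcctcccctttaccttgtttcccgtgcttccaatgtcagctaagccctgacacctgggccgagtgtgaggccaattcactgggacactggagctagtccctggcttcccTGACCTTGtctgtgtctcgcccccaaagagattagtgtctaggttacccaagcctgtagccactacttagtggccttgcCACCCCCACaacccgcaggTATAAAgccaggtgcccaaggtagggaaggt

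The lowest, median and highest levels of Fshb were 7.20, 8.34 and 9.64 under long days, 9.11, 9.73 and 10.17 in advance, 9.04, 9.42 and 9.74 in delay, and 7.61, 9.31 and 10.41 under short days. Only 1 of 12 long-day arrays exceeded the short-day median, against 10 of 12 in advance, although the ranges overlapped. The lowest short-day value was replicate 1 at ZT8, far from its partner at 9.42. Fshb fell by 0.93 under long days (−0.93 ± 0.16, adjusted p = 1.58e-05, exact permutation p = 0.00313), at 6 of 6 time points, where 29.1% of genes passed as lower. It rose by 0.50 ± 0.16 in advance (adjusted p = 0.0112), at 6 of 6 time points, where 51.4% of genes passed in either direction and 22.2% as higher. Advance at ZT16, taken as the extra light began, already had Fshb at 10.09 and 9.99, against 9.57 and 9.49 under short days. Whether that light had a part in the advance difference was not tested. With the actin signal as a covariate the advance value was 0.41 ± 0.22 and the call was lost (adjusted p = 0.140). In delay the difference was 0.23 ± 0.16 (adjusted p = 0.246). It passed without replicate 2 of short days at ZT8 (0.38, adjusted p = 0.0272) and without the 6 arrays high in Prl or Gh (0.37, adjusted p = 0.0482). Advance minus delay was 0.26 ± 0.16 and did not pass in limma (adjusted p = 0.258), while the exact permutation test within time points, added with the values known, gave an unadjusted p of 0.00943, the difference being positive at 5 of 6 time points.

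Lhb gave the same directions. Its lowest, median and highest levels were 6.76, 7.26 and 8.16 under long days, 8.02, 8.60 and 8.92 in advance, 7.77, 8.35 and 8.98 in delay, and 7.14, 7.91 and 9.01 under short days. All 12 advance arrays, 11 of 12 delay arrays and 1 of 12 long-day arrays exceeded the short-day median. Lhb fell by 0.59 under long days (−0.59 ± 0.12, adjusted p = 0.000101, exact permutation p = 0.00189), and was lower at 6 of 6 time points. It rose by 0.57 ± 0.12 in advance (adjusted p = 0.000123), at 6 of 6 time points, and by 0.37 ± 0.12 in delay (adjusted p = 0.0108), at 5 of 6. Advance at ZT16, as the extra light began, already stood at 8.81 and 8.92, against 8.20 and 7.76 under short days. Delay before its extra light had 8.49 and 7.99 at ZT0, 8.43 and 8.42 at ZT4, and 8.14 and 8.26 at ZT8. Short-day levels at these times were 8.07 and 7.81, 7.64 and 8.19, and 7.14 and 8.02. The part of the extra light in either rise was not tested. Advance minus delay was 0.21 ± 0.12 (adjusted p = 0.220). These 3 calls of Lhb against short days held with the Gh or the actin signal as a covariate and without the 6 arrays high in Prl or Gh. In order of mean both genes ran advance, delay, short days and long days, and only for Lhb did delay and short days differ past the threshold.

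Fshb and Lhb also varied together between replicates (r = 0.879, rho = 0.850, permutation p = 1e-05 for each, the smallest that the resamples can give). Without the 2 groups farthest from the median of Fshb the r was 0.855. Lhb was the gene most like Fshb among 18193, followed by Gnrhr (r = 0.88), Esrp1 (0.83), Cldn9 (0.80) and Cyp1b1 (0.76). For Lhb the list was Fshb (0.88), Gnrhr (0.80), Pex16, Gltp and Hdac1 (0.70 each). Gnrhr, the receptor that marks gonadotrophs, fell by 0.46 under long days (−0.46 ± 0.16, adjusted p = 0.0138) and rose by 0.51 ± 0.16 in advance (adjusted p = 0.00597). Its lowest and highest levels were 4.76 and 6.53 under long days, 5.98 and 7.03 in advance, 5.73 and 6.71 in delay, and 4.89 and 7.39 under short days, and it lay below the first quartile of the array on 8 of 12 long-day and 2 of 12 short-day arrays. These values are from its brightest probe set. Its other probe sets lay below the first quartile on all 12 arrays of every condition. Their means were 4.81 and 3.90 under long days, 4.87 and 4.02 in advance, and 4.83 and 4.01 under short days. The part of Gnrhr in the changes of Fshb and Lhb was not tested. Cga, the alpha subunit gene they share with thyrotropin, changed by 0.03 ± 0.06 under long days, rose by 0.44 ± 0.06 in advance and fell by 0.15 in delay (−0.15 ± 0.06).

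The other pairs of hormone genes were tied less firmly. Prl with Pomc (r = 0.626, adjusted permutation p = 0.00617) and Gh with Pomc (r = 0.538, adjusted p = 0.0131) stayed past the threshold without their 2 farthest groups (r = 0.527 and 0.610), but Gh with Pomc lost it without ZT12 of advance (r = 0.408, adjusted p = 0.0705). Prl with Fshb and Lhb, and Gh with Fshb and Lhb, had r between 0.508 and 0.560. Each of these 4 relations was lost without the group of ZT12 under short days, with r of 0.422, 0.375, 0.365 and 0.319 and adjusted permutation p between 0.1002 and 0.180, and they rest on that group. Fshb with Pomc (r = 0.192) and Lhb with Pomc (r = 0.277) did not pass with all 24 groups. The first passed without its 2 farthest groups (r = 0.523, adjusted p = 0.0280) and the second without ZT8 of short days (r = 0.440, adjusted p = 0.0393). By likeness to all other genes the named genes after Gh were, for Prl, Urah (0.71), Ezh2 (0.64), Tnnt1 and Pomc (0.63 each), where Pomc had rank 7 because 2 clone names ahead of it were passed over, and for Gh, after Prl, Deptor (0.70), Mavs (0.68), Gnrhr and Zfp746 (0.66 each).

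Pomc was lower in advance. Its lowest, median and highest levels were 12.18, 12.61 and 13.35 under long days, 11.68, 11.94 and 13.61 in advance, 11.96, 12.26 and 13.24 in delay, and 12.32, 12.59 and 13.03 under short days. In all, 9 of 12 advance arrays and 8 of 12 delay arrays lay below every short-day array. The exceptions in advance were replicate 2 at ZT8, ZT12 and ZT16, at 12.75, 13.61 and 13.13, whose partners were at 11.88, 11.79 and 11.81. Pomc fell by 0.44 in advance (−0.44 ± 0.15, adjusted p = 0.0135), where 29.3% of genes passed as lower. The call was lost without replicate 1 of advance at ZT16 (−0.33, adjusted p = 0.0526) or at ZT12 (−0.29, adjusted p = 0.0561), and with the actin signal as a covariate (−0.14, adjusted p = 0.570). Without the 6 arrays high in Prl or Gh the fall was 0.57 (−0.57 ± 0.13, adjusted p = 0.000399).

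In delay Pomc differed from short days by −0.29 ± 0.15, which did not pass in limma (adjusted p = 0.109) and had an unadjusted exact permutation p of 0.0361 as 1 of 20 such tests. The difference under long days was −0.0046 ± 0.15 (adjusted p = 0.986). Advance minus delay was −0.15 ± 0.15 (adjusted p = 0.509). The order of means was short days (12.65) with long days (12.65), then delay (12.36) and advance (12.21), and neighbours in it differed by less than the SD of either. The second probe set of Pomc followed it with r = 0.984 over the 48 arrays. The genes most like Pomc between replicates were Smdt1, Kifbp (0.72 each), Srp14, Elapor1 and Snx19 (0.70 each).

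**Figure D4:**
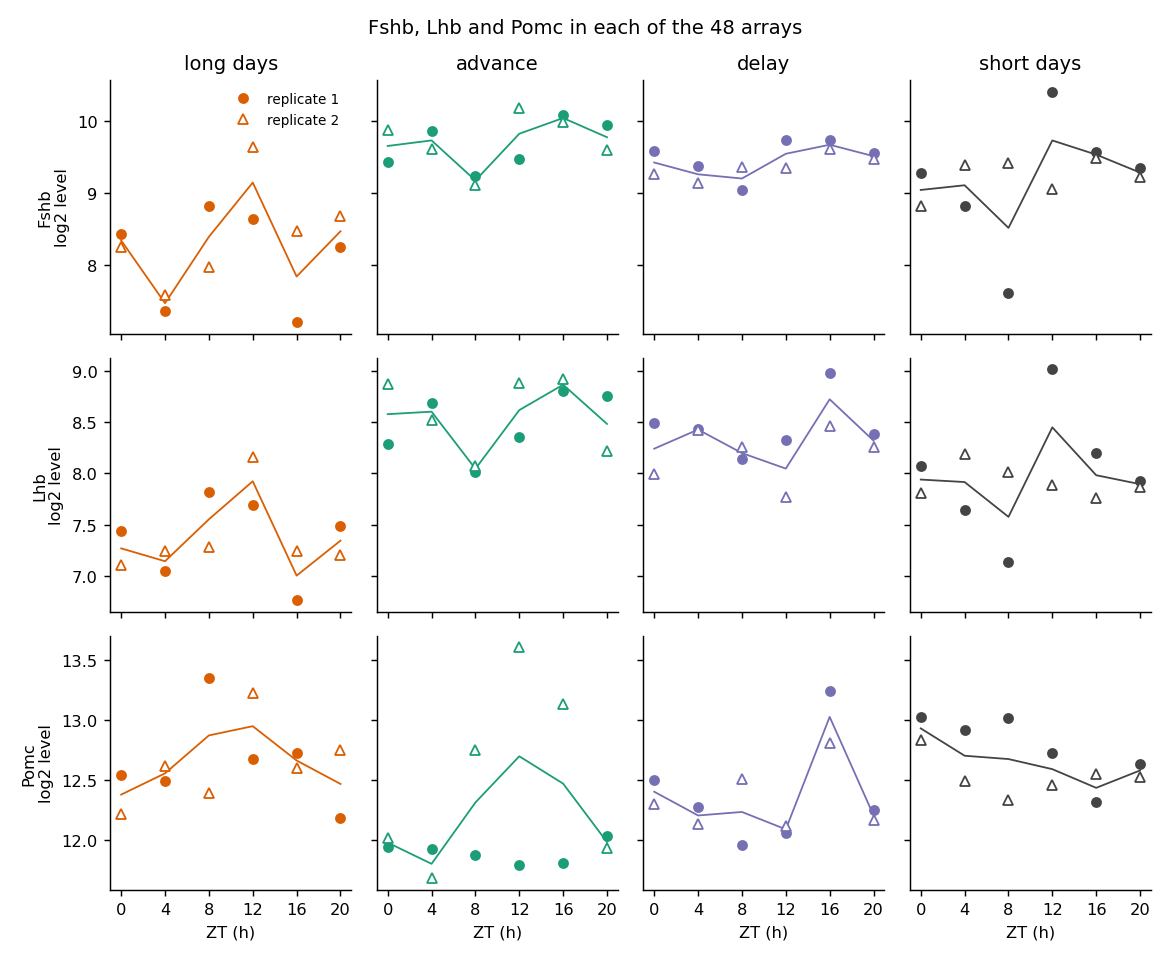
Log2 level of Fshb, Lhb and Pomc (rows) on each of 48 arrays, by condition, against ZT in hours, with filled circles for replicate 1, open triangles for replicate 2 and lines through the means. Fshb and Lhb lie lowest under long days, and 3 replicate 2 arrays of advance stand above the rest for Pomc.

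Most of the listed genes of hypothalamic neurons fell in advance and in delay. Of 13 measured genes of arcuate and other hypothalamic neurons 0 rose and 9 fell in advance, and 0 rose and 10 fell in delay, with 1 higher and 3 lower under long days. Of all genes 29.3% were lower in advance, 26% in delay and 29.1% under long days. The median changes were −0.54, −0.51 and −0.07, against medians over all genes of −0.0033, 0.01 and −0.03. Sst, which encodes somatostatin, the inhibitor of growth hormone secretion, fell by 1.25 in advance (−1.25 ± 0.07) and by 0.65 in delay (−0.65 ± 0.07), and Slc32a1, the vesicular GABA transporter gene, fell by 0.94 and 0.68 (−0.94 ± 0.07 and −0.68 ± 0.07). The log2 of the summed signal of the list was 14.85 to 15.09 under long days, 14.47 to 14.75 in advance, 14.51 to 14.76 in delay and 14.83 to 15.29 under short days. Its part in the lower Pomc was not tested. The melanotroph and corticotroph list had 3 of 8 higher and 2 of 8 lower in advance, 2 and 2 in delay, and 1 and 3 under long days, counts of 8 genes against 22.2% higher and 29.3% lower of all genes in advance. In it Pcsk1, which encodes a convertase that cleaves the Pomc product, rose by 0.30 ± 0.05 in advance (adjusted p = 1.05e-05), and Crhr1, the receptor for corticotropin-releasing hormone, fell by 0.34 (−0.34 ± 0.05, adjusted p = 1.69e-06).

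Set side by side against the same short-day arrays, the 5 genes made different profiles. Under long days Prl was called higher, Fshb and Lhb lower. In advance Fshb and Lhb were higher and Pomc lower. In delay Prl and Lhb were higher. The day means of delay include ZT0, ZT4 and ZT8, before its extra light, and those of advance include ZT16, as that light began. No hormone gene had ranges that did not overlap in any of the 4 comparisons of day means, while 5.31% of all genes had none overlapping under long days, 7.76% in advance, 3.92% in delay and 0.555% between advance and delay. Tshb differed in this: its ranges did not overlap those of short days in any of the 3 conditions, with rises of 3.56 ± 0.16 under long days, 1.97 ± 0.16 in advance and 1.48 ± 0.16 in delay. Before its extra light, delay already had Tshb at 12.02 and 12.65 (ZT0), 12.60 and 11.62 (ZT4), and 11.39 and 12.46 (ZT8). Short days had 10.68 and 10.51, 11.26 and 9.72, and 10.14 and 10.92 at these times. Advance at ZT16 had 11.74 and 11.44, against 10.18 and 10.53 under short days. The part of the extra light in the rises of Tshb was not tested.

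**Figure D5:**
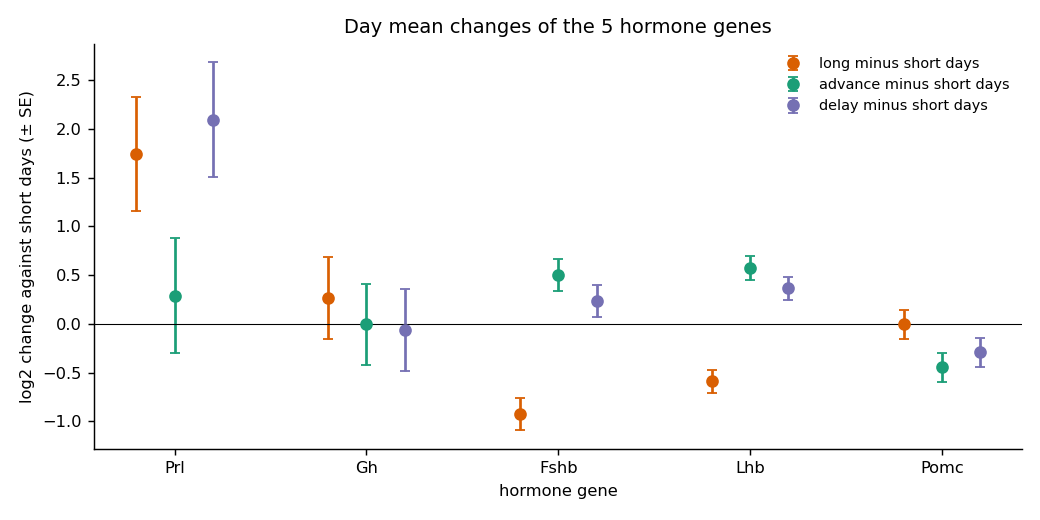
Change in day mean (log2, limma estimate ± SE) of the 5 hormone genes in long days, advance and delay, each relative to the same 12 short-day arrays. Prl is displaced upwards under long days and in delay, and Fshb and Lhb lie below 0 under long days and above it in advance.

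With all arrays, none of the 5 genes had a daily course past the threshold in limma. The F tests for variation over 6 time points gave adjusted p of 0.167 or more under long days (Fshb lowest), 0.634 or more in advance, 0.656 or more in delay and 0.247 or more under short days. In these tests 1.63%, 2.58%, 1.52% and 8.91% of all genes passed. Leaving out 1 array gave Fshb a call in the long-day course (adjusted p = 0.0438 without replicate 1 or without replicate 2 of short days at ZT8, and 0.0457 without replicate 2 of long days at ZT16), and in the short-day course without that ZT8 replicate 2 (0.0133). Pomc had a call in advance without replicate 1 at ZT12 (0.0326). The long-day course differed from the short-day course in 4.3% of genes and in no hormone gene (adjusted p of 0.326 or more), except for Fshb without replicate 2 of short days at ZT8 (0.0279). Over the first 4 h of extra light, set against the same hours under short days, 0.22% of genes passed in advance and 0.0385% in delay, none of them a hormone gene. The changes of Prl in these tests were −1.47 in advance and −3.06 in delay (adjusted p = 0.927 and 0.711), the second of which includes the high short-day array at ZT12. With 2 arrays per time point and the replicate spread above, such steps of Prl were not resolved.

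The lists of the hormone axes are small, and their counts stand beside shares over all genes of 17.6% higher and 29.1% lower under long days, 22.2% and 29.3% in advance, and 23.8% and 26% in delay. The hypothalamic ligands had 1 of 10 higher and 4 lower under long days, 1 and 4 in advance, and 1 and 3 in delay. The receptors on hormone cells had 3 of 15 higher and 4 lower under long days, 2 and 4 in advance, and 1 and 4 in delay. Trhr, the receptor for thyrotropin-releasing hormone, a stimulus to prolactin as well as thyrotropin release, rose by 0.81 ± 0.05 under long days, 0.70 ± 0.05 in advance and 0.53 ± 0.05 in delay. Ghsr, the ghrelin receptor, through which growth hormone release is stimulated, rose by 0.41 ± 0.08 under long days, differed by −0.05 ± 0.08 in advance and fell by 0.59 in delay (−0.59 ± 0.08). Drd2, the dopamine receptor that restrains lactotrophs and melanotrophs, fell by 0.14, 0.15 and 0.13 in the 3 conditions (−0.14, −0.15 and −0.13, each ± 0.05).

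Against the same shares, in which 46.7%, 51.4% and 49.8% of all genes passed in either direction, the transcription factors of hormone cells had 4 of 14 higher and 4 lower under long days, 7 and 1 in advance, and 8 and 2 in delay. Foxl2, a factor of gonadotrophs and thyrotrophs, fell by 0.14 under long days (−0.14 ± 0.05, adjusted p = 0.0334) and rose by 0.24 ± 0.05 in advance and by 0.27 ± 0.05 in delay. It is 1 of the 14, named with the values known, and is among the 7 and 8 that were higher in advance and delay. Directions of the other gonadotroph factors are not given here, so no likeness of Foxl2 to Fshb and Lhb is drawn. Of the activin and inhibin system, which regulates Fshb, 3 of 11 were higher and 4 lower under long days, 3 and 3 in advance, and 2 and 2 in delay. Inha, the inhibin alpha subunit, fell by 0.47, 0.42 and 0.38 (−0.47, −0.42 and −0.38, each ± 0.04). Peptide processing genes had 2 of 8 higher and 4 lower under long days, 2 and 3 in advance, and 0 and 6 in delay, and Pam, which amidates peptide ends, fell by 0.71, 0.65 and 0.77 (−0.71, −0.65 and −0.77, each ± 0.05). Of 5 measured receptor genes for the hormones themselves 0 rose or fell under long days, 2 rose in advance and 1 in delay. Of the 17 other pars distalis genes 2 rose and 6 fell under long days, 7 rose and 3 fell in advance, and 3 rose and 4 fell in delay, beside the same shares over all genes.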

How the data were processed

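Messenger RNA of punched pars tuberalis was measured on 48 arrays, each a pool of 25 mice. The authors deposited log2 values per probe set, and the submitters' processing notes name RMA and R 2.8.0. They were used as given, with no further normalization. No arrays were identical, and replicates are separate as far as the labels say. Of 45101 probe sets 34958 carried 1 gene symbol, and each of 18194 genes was represented by its brightest. No filter on dim genes was used. For arrays their number limits the precision, here 2 per group.

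A mean for each of 24 groups was fitted with limma 3.58.1 (R 4.3.3; trend, two-sided, Benjamini-Hochberg over all genes, threshold 0.05, 24 residual degrees of freedom); "rose", "fell" and "passed" mean an adjusted p under that threshold. Adjusted p-values of changes and daily courses come from this fit, unless an alternative or an omitted array is named. In that case they come from the model refitted in that way. In simulated data of 18194 genes for long minus short days, 99 of 100 changes of 0.5 and 100 of 100 of 1 log2 unit were recovered. There were 12 calls among unchanged genes. The changed genes were drawn from all genes, whose median SD within groups was 0.12, against 1.69 for Prl and 1.21 for Gh. These recovery rates therefore do not apply to Prl or Gh. Replicate differences were correlated over 24 groups with 100000 permutations (exact within a condition), adjusted over 10 pairs, in Python 3.11.15 with scipy 1.17.1; the exact test of long minus short days permuted conditions within each time point (46656 arrangements, smallest p 4.29e-05). It was added for the other day-mean comparisons with the values known, 20 tests in all, unadjusted.

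Genes named are the 5 hormone genes, Tshb, Cga, the 5 genes most like each hormone gene (clone names passed over) and up to 4 genes per list with the smallest p in long minus short days; which of these are printed was decided with values known, and Gnrhr and Ghrhr were added after their values were seen. The hormone genes and lists were chosen with earlier results of these data known. Alternatives with Gh or the actin signal as a covariate, without 6 arrays, and another Gh probe set were chosen after seeing the data. Promoters and motifs come from RefSeq tables, build GRCm38.p6, with 4 of the 5 hormone genes matched. No column of samples was left out.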

Additional observations from a re-analysis of the deposited data

Results flagged for a closer look

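Prl differed between the 2 conditions of the first long day: its day mean in advance was lower than in delay by 1.80 on the log2 scale (−1.80, limma, adjusted p = 0.0227), and 10 of 12 advance arrays lay below every delay array. The test was of the difference itself. The day mean of delay includes ZT0, ZT4 and ZT8, which came before its extra light. Prl is also the gene with the largest spread between replicates, and 1 advance or 1 delay array decides the call, as given with the Prl values.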

How the results depend on the processing

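Over 55 comparisons and F tests of the 5 hormone genes 3140 alternative values were computed. Of these, 3120 kept the side of the threshold and any called direction, 10 lost the call, 10 gained it and 0 reversed. Most left out 1 of the 48 arrays, often one outside the comparison, which leaves its estimate unchanged. The share kept is therefore no measure of how firm a call is. Prl under long days, Prl in advance minus delay and Pomc in advance each lost the call without 1 array of their comparison. Whether equal replicate numbers share a repeat of the procedure is not given in the labels. Replicate differences correlated between groups with a median r of 0.05 (−0.34 to 0.49; 98 of 276 pairs above 0.1), but 0.24 within long days (14 of 15 pairs above 0.1) and 0.27 within delay (11 of 15), against 0.07 within advance and 0.03 within short days. With a replicate block no call of the 5 genes changed (Prl under long days 1.74, adjusted p = 0.0115), and the count of genes past the threshold under long days was 8754 against 8503.

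Robust variances gave Prl in advance minus delay −1.80 with adjusted p = 0.0586. The actin covariate gave −1.45 for it, 0.41 for Fshb and −0.14 for Pomc in advance, none passing, and counts of 5006 genes under long days and 1896 in advance minus delay (4382 without it). Without the 6 arrays high in Prl or Gh, Fshb in delay passed at 0.37, and counts were 1022 for the short-day course, 105 for the long-day course, 311 for their difference and 0 for the delay light step (7 with all arrays, 1380 at unadjusted p under 0.05). Array weights gave 643 for the short-day and 2026 for the advance course, and no variance trend gave 1 for the delay step. The spread of Gh was 1.78 over the mean of its probe sets and 1.96 on the widest. Pairs of hormone genes past the threshold numbered 8, with 5 from levels less group means, 0 in the groups of long days, of delay and of short days alone and 2 in those of advance. In delay alone the r of Prl with Fshb was −0.074, with Lhb −0.17, and of Gh with Fshb −0.26. The causes were not tested, but groups of 1 condition are only 6.

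Leaving out 1 array gave 1.29 to 2.19 for Prl under long days (exact test likewise; the exact p was above 0.05 without replicate 2 of short days or of long days at ZT12), −2.28 to −1.33 for Prl in advance minus delay, 0.083 to 0.38 for Fshb in delay, −0.60 to −0.29 for Pomc in advance and −0.35 to −0.23 for Pomc in delay, which passed without either ZT12 advance array. The F of Fshb ran 2.31 to 5.72 for the long-day course, 1.17 to 5.83 for the short-day course and 1.68 to 5.50 for their difference, and that of Pomc in advance 1.28 to 5.82; the single omissions at which each passed are given above with the daily courses. Counts of genes ran 901 to 2765 for the short-day course, 172 to 334 for the delay course, 499 to 1456 for long against short days, 18 to 334 for the advance step and 0 to 12 for the delay step; pairs ran 4 to 9. Detection calls were not used, so no bound was set for dim probe sets.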
